A study of Gallus gallus with 300 samples.

Results

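The genes described here encode cell junction proteins and cadherins of the chicken utricle, a balance organ of the inner ear. They were chosen by symbol: cadherins, protocadherins, FAT cadherins, desmosomal cadherins, nectins, CADM proteins, claudins, TJP scaffolds and catenins, without the tip link genes CDH23 and PCDH15. A member had to reach 10 CPM (counts scaled to the cell's total) in at least 5 of the 300 cells, as 48 of the 74 matching symbols did. The files listed 13631 gene symbols in all, and 10730 of them reached that level. Just inside the threshold were CTNNA3 and FAT3 with 5 cells each and CDH8, CLDN12 and PCDH17 with 6 cells each, and just outside were CDH7 and CDH13 with 4 cells each. CDH12, CDH19, CLDN19, CLDN22 and PCDH10 were at that level in 3 cells each.

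In a sensory epithelium each hair cell is held within a mosaic of supporting cells, and junctions near the apical surface seal the epithelium. Claudins form the tight junction strands and TJP (zonula occludens) proteins tie them to actin. Cadherins and nectins bind their partners on neighbouring cells at adherens junctions, where catenins and afadin link them to actin. Desmosomal cadherins anchor intermediate filaments, CADM proteins are immunoglobulin-family adhesion molecules, and many protocadherins act in recognition between cells.

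The cells came from wild-type chickens at posthatch day 7. Sensory epithelia were separated from the stroma with thermolysin, pooled and dissociated, and viable cells were sorted singly into wells of 5 plates, numbered 2 to 6, for full-length RNA sequencing. No label names an animal for a cell, so the series was treated as 1 sample: no test was made, and errors are SDs over the 5 plates, which measure the spread between plates and not between animals. The amplified reads carry no molecular identifiers, so intervals on counts and on shares of cells cover counting error only.

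Deposited counts per cell ran from 62846 to 1234012 with a median of 395671, and 24 cells were removed by a filter of at least 1000 genes and 50000 counts. Hair cells, which were 55.1% of the kept cells, had at least 100 CPM of OCM, the calcium-binding protein oncomodulin, or at least 10 CPM of ATOH1, the transcription factor that directs hair cell formation, and under 1000 CPM of GJB6. Supporting cells were the 68 cells with at least 1000 CPM of GJB6, the gap junction protein connexin 30, and with OCM and ATOH1 below those levels. A further 34 cells met both gates and 22 met neither. Within a factor of 2 of a cut lay 31 cells for OCM, 12 for GJB6 and 22 for ATOH1.

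The classes were checked against markers that the gates did not use. Of the 20 measured hair cell markers 19 were higher and none lower in hair cells, and 12 of the 15 measured supporting cell markers were lower. The summed hair cell markers had a median of 17689 CPM in hair cells and 633 CPM in supporting cells. They reached 100 CPM in 57 of the 68 supporting cells, and 22909 CPM in 1 of them. The summed supporting cell markers had a median of 14366 CPM in supporting cells and 347 CPM in hair cells, with a highest hair cell sum of 7305 CPM. Counts of each class's markers were therefore common in the other class. Clustering without the members, the gate genes and the markers put every hair cell in hair cell clusters and 65 of the 68 supporting cells in supporting cell clusters. COL1A1, DCN, PDGFRA, TWIST1 and TBX18, which mark stroma, PDGFRB and FLT1, which mark vessels, and BSND, which marks dark cells, had no count in any kept cell. At least 100 CPM of a stromal marker or of MBP, a myelin gene of glia, was found in 12 hair and 12 supporting cells. The 4 measured glial markers together reached 100 CPM in 31 hair and 42 supporting cells. Their medians were 0 and 200.3 CPM, with a highest sum of 1663 CPM in supporting cells. The summed endothelial and mural markers reached 100 CPM in 16 hair and 10 supporting cells, with a highest sum of 1195 CPM, and the blood and immune markers in 17 and 11, with a highest sum of 2362 CPM. The transitional and dark cell markers reached it in 66 hair and 14 supporting cells, with medians of 51.7 and 0 CPM, and the neuron markers in 54 and 24, with medians of 27.5 and 11.2 CPM. The part of these lists in the results was not tested.

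Hair cells had more counts (median 442959 against 311109) and more detected genes (median 3479 against 1647.5), and the gap in genes remained after each cell was thinned to 50000 counts (2938 against 1531). Thinning moved no member's share of cells by more than 5.92 percentage points in hair cells or 5.88 in supporting cells. It evens out counts and not the number of detected genes, so the part of that gap in the results was not tested.

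More of the junction genes that separated the classes were on the side of the supporting cells. Members are called by the log2 ratio of plate-averaged CPM, with 1 CPM added to each side. A call of higher or lower needs a ratio of at least 1 in size and the same sign on each of the 5 plates. Leaving out a lone plate of opposite sign meets the sign part by construction, so calls gained that way add no support. By this rule 6 members were higher in hair cells, or 12.5% of the 48, against 18.2% of all measured genes, and 15 were lower, or 31.25%, against 7.3% of all measured genes. With log2 values averaged over cells in place of CPM, 11 members were higher and 12 lower. Of all measured genes that averaging called 2882 higher and 568 lower. The median log2 ratio of the members was -0.88, with an SD of 0.58 over the plate medians, while that of all measured genes was 0.13. A typical hair cell had 9.5 members at 10 CPM or more and a typical supporting cell 10, in ranges of 1 to 19 and 2 to 22. Of all measured genes the medians at that level were 3001 and 1539. The summed CPM of the members had a median of 2349 in hair cells and 6277 in supporting cells.

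**Figure D1:**
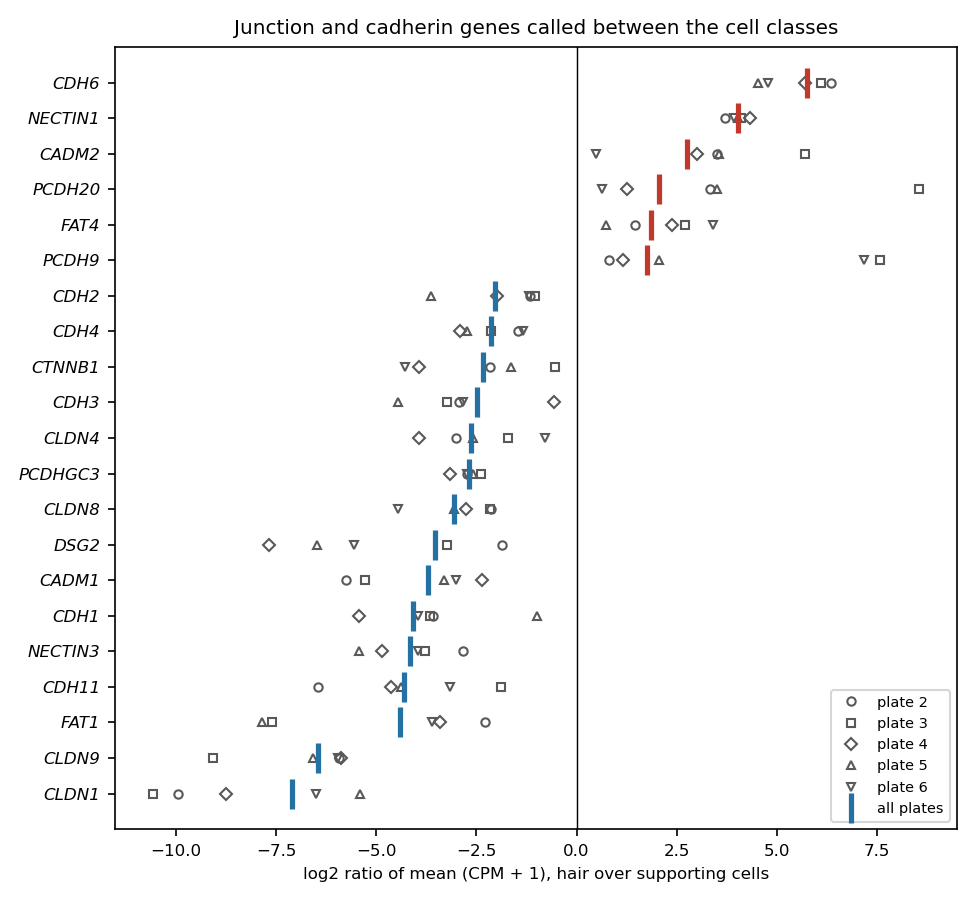
Log2 ratio of mean CPM plus 1, hair over supporting cells, for the 21 called members, 1 row per gene. Open symbols are the 5 plates and coloured bars the value over all plates, red where higher in hair cells and blue where lower. CLDN1 and CLDN9 lie farthest to the left, at -7.10 and -6.46, and CDH6 farthest to the right, at 5.76.

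The lowest log2 ratios among the called members were those of CLDN1 and CLDN9. Of the 9 claudin members 4 were lower in hair cells and none higher, against 7.3% and 18.2% of all measured genes. Their median log2 ratio was -0.54. CLDN1, a sealing claudin of many epithelia, averaged 1449, 2187, 1336, 1544 and 1372 CPM in supporting cells of plates 2 to 6. In hair cells the same plates gave 0.48, 0.44, 2.11, 35.3 and 14.3 CPM. The plates did not overlap, and the mean was 1578 ± 350 CPM (SD, n = 5 plates) in supporting and 10.5 ± 15.02 CPM in hair cells, a log2 ratio of -7.10. CLDN1 reached 10 CPM in 95.6% of supporting cells (exact binomial 95% interval 87.6 to 99.1%) and in 2.63% of hair cells (0.72 to 6.6%). The hair cell mean rested on 4 cells, and without plate 5 the log2 ratio was -8.22.

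CLDN9, which is needed for hearing in mice, followed the same pattern at 389, 582, 281.8, 532 and 517 CPM in supporting cells of the 5 plates. In hair cells it was at 5.39, 0.083, 3.79, 4.59 and 7.35 CPM. Every supporting plate was far above every hair plate, at 460 ± 122.6 against 4.24 ± 2.67 CPM, a log2 ratio of -6.46, and 86.8% of supporting and 7.24% of hair cells were at 10 CPM or more. CLDN8, a claudin of tight epithelia such as the distal nephron, was at 272.1, 180.6, 701, 451 and 892 CPM in supporting cells. Hair cells had 60.8, 39.3, 103.4, 53.4 and 39.7 CPM of it, again without overlap, for a log2 ratio of -3.05. It was detected in 58.8% of supporting cells but also in 21.1% of hair cells, so it separated the classes less fully than CLDN1 or CLDN9.

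CLDN4 was a low gene, at 7.07, 5.59, 14.3, 5.02 and 0.87 CPM in supporting cells and at most 1.01 CPM on any hair plate. The ranges overlapped at their edges, and the log2 ratio was -2.63. Claudins were combined within single supporting cells: 36 of the 68 cells had CLDN1, CLDN9 and CLDN8 together, 25 had a pair of them, 6 had 1 and 1 had none. Of the hair cells 71.7% had none of the 3, 39 cells had 1, 4 had a pair and none had all 3. All 40 supporting cells with CLDN8 and all 28 with NECTIN3 also had CLDN1. These overlaps were near the products of the separate shares, which give 38.2 and 26.8 cells.

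The other claudin members were not called. CLDN3 was at 12.2 ± 4.76 CPM in hair and 8.85 ± 6.02 CPM in supporting cells and was found in 28.3% and 17.6% of cells. CLDN5, a claudin of vessel walls, CLDN11 and CLDN12 were each found in under 10% of the cells of either class, and CLDN11 was called higher without plate 6, at a log2 ratio of 1.29. CLDND1, which carries a claudin domain but is named here by its symbol only, was the claudin symbol found in the largest share of hair cells, in 71.1% against 36.8% of supporting cells. Its mean was 408 ± 92.02 against 269.7 ± 110.3 CPM, higher in hair cells on 4 of 5 plates, and its log2 ratio of 0.60 was below the threshold.

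**Figure D2:**
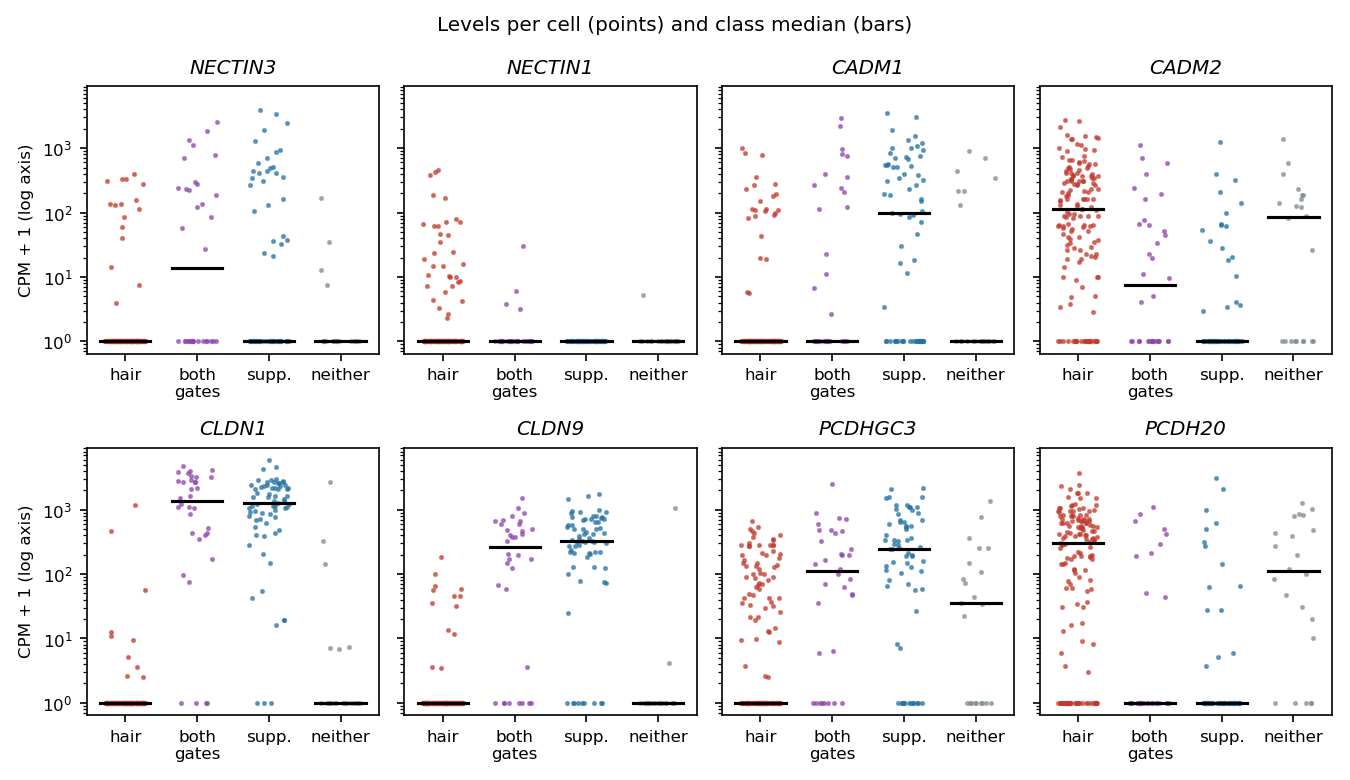
CPM plus 1 per cell on a log axis for 8 members in hair cells, cells that met both gates, supporting cells (supp.) and cells that met neither. Each point is a cell and each bar the class median. CLDN1 and CLDN9 fill the supporting column, NECTIN1 has no point above 0 CPM among the 68 supporting cells, and CADM1 and CADM2 show opposite patterns.

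The pair of nectins was divided between the classes. Nectins bind across cells most strongly between unlike types, and in the mouse cochlea nectin-1 is on hair cells and nectin-3 on supporting cells. In these chicken cells NECTIN3 averaged 134.2, 321, 227.2, 458 and 392.2 CPM in supporting cells of plates 2 to 6. Hair cells had 18.004, 22.6, 6.95, 9.67 and 24.4 CPM, below every supporting plate, for a log2 ratio of -4.15. NECTIN1 was at 12.1, 16.2, 19.2, 15.2 and 14.1 CPM in hair cells and had no count in any of the 68 supporting cells. The hair cell level was 113.1-fold above a floor of 3 counts over all supporting cells. That floor covers counting error and not which cells were sampled, so it sets no lower limit on the fold.

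Detection of both nectins was partial. NECTIN1 reached 10 CPM in 20 hair cells (13.2%, 8.23 to 19.6%), and no supporting cell had a count. A count of 0 in 68 cells allows up to 4.41% of cells with a count by the limit of 3 cells, and the exact interval reaches 5.28%. NECTIN3 reached it in 28 of 68 supporting cells (41.2%) and in 14 hair cells (9.21%). Only 1 hair cell had both nectins, where the product of the shares gives 1.84 cells.

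The CADM genes were likewise divided, with CADM1 lower and CADM2 higher in hair cells. CADM1, an adhesion molecule of epithelia and synapses, was at 321, 814, 243.97, 421 and 459 CPM in supporting cells. Its hair cell values were 4.99, 20.1, 46.6, 41.5 and 56.3 CPM, below all supporting plates, for a log2 ratio of -3.70. CADM2, known mainly from the nervous system, was at 458, 380, 228.1, 274.3 and 176.9 CPM in hair cells. In supporting cells it was at 39.1, 6.29, 27.5, 22.6 and 125.3 CPM, so the plates did not overlap, and the log2 ratio was 2.75, or 3.76 without plate 6. CADM2 was detected in 78.3% of hair cells against 20.6% of supporting cells, and CADM1 in 14.5% against 63.2%.

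CADM3, a neural family member, was higher in hair cells on 4 of 5 plates and was not called. Its hair cell values were 7.11, 24.8, 79.4, 61.3 and 49.7 CPM, and in supporting cells it was at 8.61 CPM on plate 2 and had no plate mean above 0 on the others. A single supporting cell, of 68, was at 10 CPM or more, and the clusters placed it with hair cells. Over the 65 supporting cells that gate and clusters classed alike CADM3 was called higher in hair cells, at a log2 ratio of 5.43, and likewise without plate 2, at 5.78. Both runs leave out that single cell, which removes the opposite sign by construction, so they add no support.

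Among the 8 classical and related cadherins 5 were lower and 1 was higher in hair cells, against 7.3% and 18.2% of all measured genes. CDH1 (E-cadherin), the main cadherin of epithelia, had no count in any hair cell, which allows a share of up to 1.97% of cells with a count. In supporting cells it was low and sparse, at 10.96, 11.6, 42.2, 0.99 and 14.7 CPM, in 8 of 68 cells. The supporting cell level was 365-fold above a floor of 3 counts over all hair cells, which covers counting error only.

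CDH2 (N-cadherin) was present in both classes. It averaged 86.1, 67.7, 127.6, 416 and 174.6 CPM in supporting cells and 38.2, 32.4, 31.4, 32.4 and 76.01 CPM in hair cells. The plate ranges overlapped at their edges, while each plate on its own had the higher value in supporting cells. The log2 ratio was -2.03, and -1.34 without plate 5. CDH4 (R-cadherin) was at 65.6, 293.1, 170.8, 235.9 and 143.2 CPM in supporting cells and at 23.3, 66.2, 21.8, 34.5 and 55.9 CPM in hair cells. Its ranges also overlapped at their edges, and the log2 ratio was -2.14.

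CDH3 (P-cadherin) and CDH11, a cadherin best known from mesenchyme, were the remaining cadherins that were lower in hair cells. CDH3 was at 17.3, 29.4, 13.1, 27.5 and 6.97 CPM in supporting cells and at 1.39, 2.26, 8.63, 0.30 and 0.12 CPM in hair cells. The ranges overlapped, and the log2 ratio was -2.49, or -3.40 without plate 4, where the hair cell value was highest. CDH11 was at 87.4, 2.67, 23.98, 49.4 and 48.7 CPM in supporting cells and at 4.54 CPM or less on every hair plate, with overlap. Its log2 ratio was -4.31, with -3.70 without plate 2 and -4.95 without plate 6. The log2 ratio of CDH1 was -4.09, and -3.40 without plate 4.

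CDH6 (K-cadherin) was the only one of these cadherins called higher in hair cells. It averaged 133.7, 68.2, 51.3, 21.96 and 26.4 CPM in hair cells, and 1 count in a single supporting cell of plate 2 was all that the 68 supporting cells held. The ratio of summed counts per total was 1120, with a counting interval of 200.999 to 44234, and the log2 ratio of the plate means was 5.76. CDH6 was sparse even so, at 10 CPM or more in 29 hair cells (19.1%, 13.2 to 26.2%). CDH18 was found in supporting cells of 3 plates only and had no count in hair cells, and CDH8 was found in 3 hair and 2 supporting cells. Neither was called.

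Of the 10 protocadherin members 2 were higher and 1 was lower in hair cells and 7 were not called, shares close to the 18.2% and 7.3% of all measured genes. PCDH20 was at 524, 372, 591, 494 and 328 CPM in hair cells. In supporting cells it was at 50.8, 0, 245.1, 42.7 and 209.6 CPM, which did not overlap, for a log2 ratio of 2.06. It was detected in 74.3% of hair cells and 17.6% of supporting cells. PCDH9 was at 286.3, 190.1, 251.6, 333 and 143.9 CPM in hair cells and at 163.97, 0, 111.2, 78.8 and 0 CPM in supporting cells. Those ranges overlapped between plates, each plate had the higher value in hair cells, and the log2 ratio was 1.75. Both genes were found together in 86 hair cells, against 83.3 from the product of their shares.

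Only 3 supporting cells were placed in hair cell clusters, so most of those with CADM2, PCDH20 or PCDH9 had to lie outside them. Of the 3 supporting cells placed in hair cell clusters all had CADM2 at 10 CPM or more, and PCDH20 and PCDH9 were each in 2 of them. In the other 65 cells CADM2 was found in 11, PCDH20 in 10 and PCDH9 in 10, and the log2 ratios were 3.04, 2.11 and 1.66.

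PCDHGC3, a member of the gamma protocadherin cluster, was the only protocadherin called lower in hair cells. It was at 422, 538, 509, 426 and 273.1 CPM in supporting cells and at 62.7, 102.5, 55.9, 70.7 and 40.3 CPM in hair cells, without overlap. The log2 ratio was -2.69, and 77.9% of supporting and 39.5% of hair cells were at 10 CPM or more. Genes of this cluster share their last exons, so the PCDHGC3 values may hold reads of other gamma protocadherins from those exons. PCDH7 was found in 7 supporting cells and had no count in hair cells, and PCDH8 and PCDH19 were more often found in hair cells, at 19.7% and 23.7% against 4.41% and 11.8%. None of these was called over all 5 plates. PCDH8 was called higher without plate 2, at a log2 ratio of 3.72, and over the 65 supporting cells classed alike, at 1.78, and PCDH19 was called higher without plate 5, at 1.79. PCDH18 was called higher without plate 2, at 2.08.

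FAT1 and FAT4, giant cadherins, differed in direction. FAT1 was at 20.05, 209.6, 236.5, 324 and 230.1 CPM in supporting cells. Hair cells had 3.28, 0.083, 21.2, 0.40 and 18.1 CPM of it. The ranges overlapped at their edges, and the log2 ratio was -4.41. FAT4, which binds the Dachsous cadherins in planar polarity, was at 23.2, 5.48, 23.5, 7.00 and 9.65 CPM in hair cells and at 7.82, 0, 3.66, 3.79 and 0 CPM in supporting cells. The plates overlapped, the log2 ratio was 1.86, and only 5 supporting cells were at 10 CPM. Without the filter on cells the log2 ratio of FAT4 was -0.10, so its direction depends on that filter. FAT3 was found in 1 hair and 3 supporting cells.

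DSG2, the only desmosomal cadherin among the members, was at 91.7, 484, 205.3, 92.3 and 57.7 CPM in supporting cells. Hair cells had 24.7, 50.9, 0, 0.045 and 0.26 CPM, and 3 cells carried all values at 10 CPM or more. The plates did not overlap, the log2 ratio was -3.53, and 30.9% of supporting cells had the gene.

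Among the cytoplasmic partners of these proteins few were called. TJP1 and TJP3 were not called. TJP1 was at 89.03 ± 42.3 CPM in hair and 152.8 ± 73.9 CPM in supporting cells, in 37.5% and 33.8% of cells. TJP3 was at 6.79 ± 6.02 against 1.43 ± 1.86 CPM. TJP1 was called lower without plate 6, at a log2 ratio of -1.22, and TJP3 higher without plate 5, at 2.45. Of the 9 genes with catenin symbols 1 was called lower and none higher in hair cells, against 7.3% and 18.2% of all measured genes. CTNNB1 (beta-catenin), which binds cadherin tails and also acts in Wnt signalling, was at 631, 233.1, 633, 139.1 and 435 CPM in supporting cells. In hair cells it was at 139.99, 161.7, 40.4, 44.01 and 21.6 CPM, and the ranges overlapped through the high hair cell values of plates 2 and 3. The log2 ratio was -2.33, while the shares of cells were closer, at 58.8% and 46.7%.

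CTNNA1 (alpha-catenin), the actin link of the cadherin complex, was at 61.7 ± 32.9 against 123.5 ± 82.02 CPM, lower in hair cells on 4 of 5 plates, and was called lower without plate 6, at a log2 ratio of -1.34. CTNND1 (p120-catenin), which stabilises cadherins at the membrane, was at 15.02 ± 4.21 against 19.6 ± 11.5 CPM and in 20.4% and 19.1% of cells. CTNNA2, CTNND2, CTNNA3 and CTNNAL1 had no common sign over the plates. CTNNBIP1, an inhibitor of beta-catenin in the nucleus, was at 88.3 ± 28.1 against 93.1 ± 56.6 CPM. CTNNBL1, which shares the name but is known from splicing complexes, was at 213.4 ± 48.4 against 147.1 ± 92.4 CPM and in 57.9% against 22.1% of cells.

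**Figure D3:**
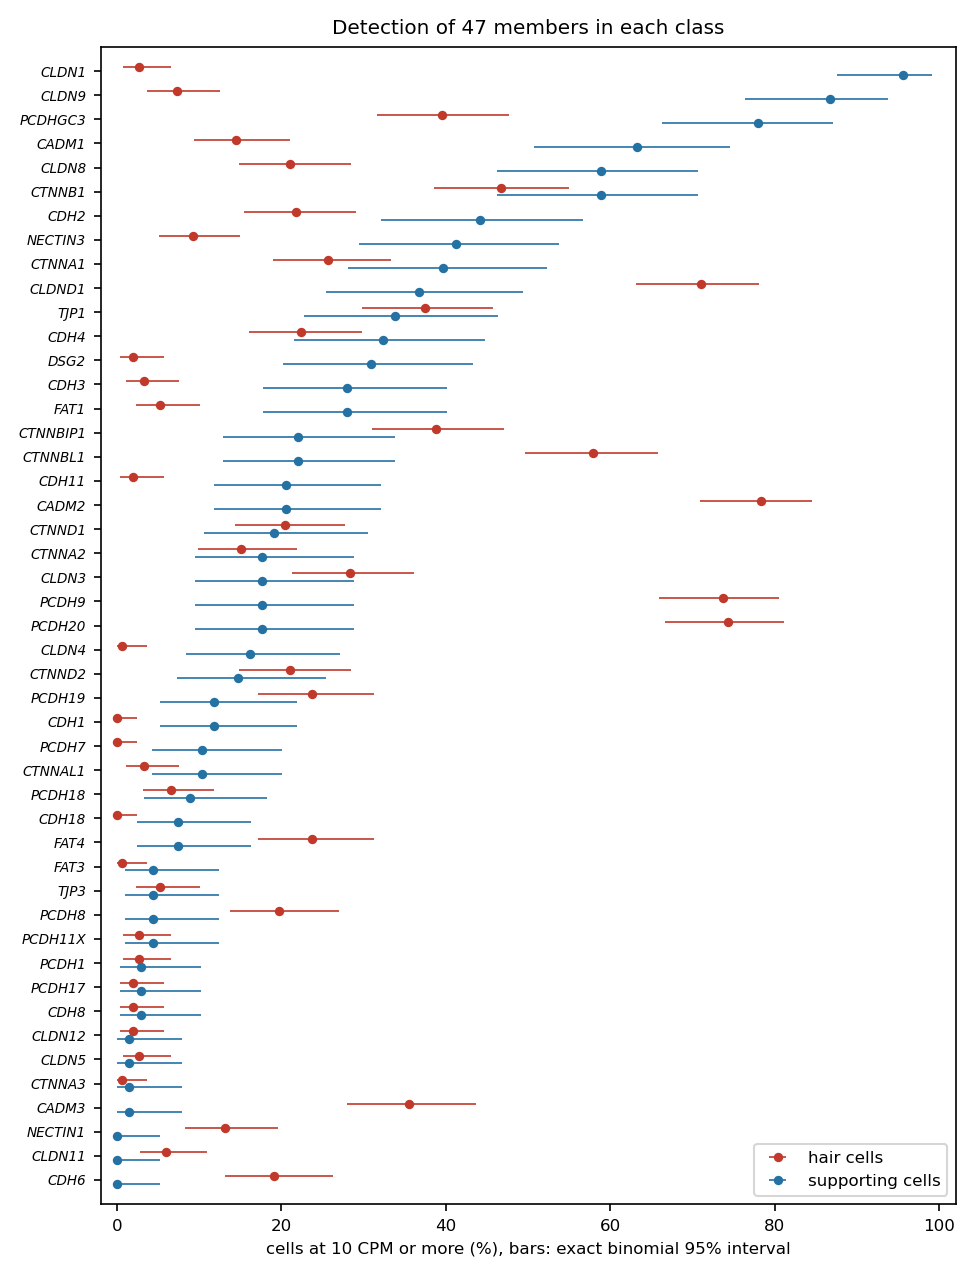
Share of cells at 10 CPM or more for 47 of the 48 members in hair cells (red) and supporting cells (blue), sorted by the share in supporting cells. Bars are exact binomial 95% intervals over cells, which cover counting error only. CLDN1 is at 95.6% against 2.63% and CADM2 at 20.6% against 78.3%, while TJP1 is at 33.8% and 37.5%.

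Genes of the same junctions that are no members were counted in 4 lists. The counts stand beside 18.2% of all measured genes called higher and 7.3% called lower in hair cells. Of 30 measured tight junction and polarity genes 2 were higher and 2 lower in hair cells, with a median log2 ratio of -0.63. CGNL1 (paracingulin), a junction plaque protein, was at 357, 317, 362, 462 and 623 CPM in supporting and at 0, 6.49, 16.8, 33.5 and 29.7 CPM in hair cells, without overlap. JAM2, a junctional adhesion molecule, had a log2 ratio of -2.34, and the polarity genes PARD6G and LIN7A had 3.54 and 3.00. PARD6G had no count in supporting cells, and its hair cell level was 78.4-fold above the floor of 3 counts.

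Of 23 measured adherens junction and desmosome plaque genes 3 were higher and 3 lower, with a median of -0.81. AFDN (afadin), which links nectins to actin, was at 344, 331, 409, 236.9 and 303 CPM in hair cells and at 77.4, 1.18, 18.4, 65.2 and 9.23 CPM in supporting cells. It was found in 79.6% of hair cells, 14.7% of supporting cells, and no plates overlapped. VEZT (vezatin), an adherens junction protein of hair cells in mice, had a log2 ratio of 3.44 and SHROOM2 of 3.08. ARVCF, a relative of p120-catenin, PKP2, a desmosome plaque protein, and PTPRF, a receptor phosphatase, had log2 ratios of -4.75, -4.01 and -2.85.

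Of 14 measured planar polarity genes 1 was called. DCHS2, a Dachsous cadherin of the family that pairs with FAT4, was at 61.4, 34.9, 17.9, 15.4 and 28.5 CPM in hair cells. It had no count in supporting cells, and its hair cell level was 232.4-fold above the floor of 3 counts. Of 12 measured immunoglobulin-family and other adhesion genes 4 were higher and 3 lower, with a median of 0.59. NFASC (neurofascin) was at 180.1 ± 46.01 against 13.1 ± 19.8 CPM, and DSCAML1 and NCAM2 had log2 ratios of 5.01 and 4.71. EPCAM, an epithelial adhesion protein that binds claudins, was at 2524 ± 614 CPM in supporting and 166.8 ± 56.7 CPM in hair cells. BSG (basigin) was at 4223 ± 1115 against 601 ± 70.9 CPM, and EMB (embigin) had no count in hair cells and was at 159.9 ± 70.9 CPM in supporting cells.

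Within the hair cells the members were next compared by OCM, which is abundant in only some of them. The 54 OCM-high cells had at least 10000 CPM and the 98 OCM-low cells less, and 29 cells lay within a factor of 2 of that cut. Of the 48 members 1 was higher in OCM-high cells, or 2.08%, against 2.62% of all measured genes, and 5 were lower, or 10.4%, against 5.68%. The median log2 ratio was -0.24, and -0.08 over all genes. Without plate 4 the number called was 10, with CDH4, CTNND2, DSG2, NECTIN3 and PCDH20 added and CTNNBIP1 lost. Calls of all measured genes without that plate are not given here, so the number is no result about the members.

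CDH6 was the member that was higher with OCM. It was at 345, 197.3, 128.6, 53.3 and 79.2 CPM in OCM-high cells and at 9.29, 9.61, 10.5, 0 and 0 CPM in OCM-low cells, without overlap. The log2 ratio was 4.56, and CDH6 was found in 24 of 54 OCM-high cells (44.4%, 30.9 to 58.6%) against 5 of 98 OCM-low cells (5.10%, 1.68 to 11.5%). CDH4 went the same way on 4 of 5 plates, at 86.2 ± 60.96 against 15.9 ± 14.1 CPM. It was not called, because plate 4 had 14.5 against 25.7 CPM, and its log2 ratio was 2.37, or 2.87 without plate 4. In all, 15 hair cells had both CDH6 and CDH4, where the product of the shares gives 6.49. That product is over all hair cells and does not allow for the larger share of both genes in OCM-high cells. CDH4 was found in 40.7% of OCM-high and 12.2% of OCM-low cells.

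The protocadherins PCDH19 and PCDH8 had the opposite pattern. PCDH19, an adhesion molecule that acts together with N-cadherin, was at 56.4, 62.7, 111.2, 11.5 and 68.2 CPM in OCM-low cells and at 0, 0, 0, 5.97 and 4.34 CPM in OCM-high cells. PCDH8 was at 26.6, 16.6, 11.6, 31.1 and 15.8 CPM in OCM-low cells and at 0, 2.69, 0, 0 and 0.57 CPM in OCM-high cells. Neither overlapped between plates. The log2 ratio of PCDH19 was -4.36, and -5.18 without plate 5, and that of PCDH8 was -3.69, and -4.28 without plate 3. PCDH19 was found in 32.7% of OCM-low and 7.41% of OCM-high cells, and PCDH8 in 29.6% and 1.85%.

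CTNND1, CTNNBIP1 and CADM1 were also lower in OCM-high cells. CTNND1 was at 5.69 ± 5.26 against 20.3 ± 5.50 CPM, with no overlap between plates, and CTNNBIP1 was at 51.5 ± 33.4 against 107.3 ± 28.9 CPM. The log2 ratios were -1.67 and -1.05, and CTNNBIP1 was under the threshold without plate 3 or without plate 4. CADM1 was at 11.3 ± 16.2 against 45.6 ± 28.04 CPM, with a log2 ratio of -1.92, and -2.88 without plate 5. PCDH20 was at 322 ± 200.7 against 548 ± 147.5 CPM, lower on 4 of 5 plates, and was not called. CADM2 was found in 81.5% of OCM-high and 76.5% of OCM-low cells.

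**Figure D4:**
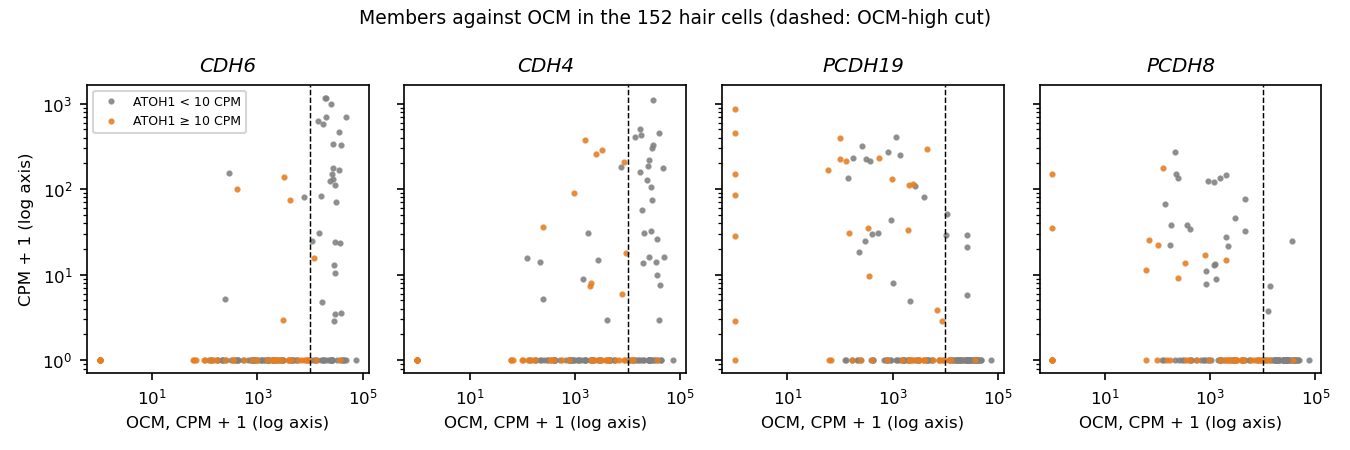
CPM plus 1 of CDH6, CDH4, PCDH19 and PCDH8 against that of OCM in the hair cells, both on log axes, with ATOH1-positive cells in orange and the OCM-high cut of 10000 CPM as a dashed line. CDH6 is found mostly to the right of the cut, in 24 of 29 cells, and PCDH8 to the left of it, in 29 of 30.

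The same hair cells were also divided by ATOH1, into 47 cells with at least 10 CPM and the remaining 38.04% of kept cells below. The comparisons are not independent, since 44 of the 47 ATOH1-positive cells were OCM-low. Part of this overlap follows from the hair cell gate. ATOH1-negative cells needed at least 100 CPM of OCM to enter the class, and ATOH1-positive cells did not. None of the 48 members was higher in ATOH1-positive cells, against 2.52% of all measured genes, and 5 were lower, or 10.4%, against 4.72%. The median log2 ratio was -0.02, as it was over all genes. The number called was 9 without plate 4, 8 without plate 5 and 8 without plate 6. Calls of all measured genes without these plates are not given here, so the numbers are no result about the members.

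CADM2 was at 263.03, 228.2, 93.5, 101.1 and 83.8 CPM in ATOH1-positive and at 555, 440, 299.3, 319 and 237.4 CPM in ATOH1-negative cells. Every plate had the lower value in ATOH1-positive cells, the ranges overlapped, and the log2 ratio was -1.26, while the shares of cells were close, at 80.9% and 77.1%. CDH6 was at 7.10 ± 10.2 against 85.9 ± 68.2 CPM, with a log2 ratio of -3.42, -2.56 without plate 2 and -4.44 without plate 3. CLDN8 was at 19.4 ± 13.01 against 77.8 ± 40.3 CPM, with a log2 ratio of -1.95.

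NECTIN1 was at 10.9, 6.09, 3.14, 0 and 1.95 CPM in ATOH1-positive and at 12.7, 20.2, 27.7, 19.2 and 22.1 CPM in ATOH1-negative cells. The plates did not overlap, and the log2 ratio was -1.98, or -2.62 without plate 2. The shares of cells at 10 CPM or more were 10.6% and 14.3%, with intervals that overlap widely. NECTIN3 went the other way on 4 of 5 plates, at 38.2 ± 20.9 against 6.88 ± 5.59 CPM, and was found in 19.1% against 4.76% of cells. It was 1 of 8 members that were higher on 4 of 5 plates and were not called. The others past the size threshold were CDH3, at 6.84 ± 10.2 against 0.35 ± 0.39 CPM and in 5 cells against none at 10 CPM, TJP1, at 163.8 ± 101.5 against 53.9 ± 29.3 CPM, and PCDH19, at 73.1 ± 61.9 against 24.5 ± 14.2 CPM. CDH2, CTNNA1, PCDHGC3 and PCDH18 had log2 ratios of 0.50 to 0.97. Each of the 8 except CTNNA1 was called higher when its lone plate of opposite sign was left out. That removes the disagreement by construction and adds no support. The CLDN1 value of hair cells came from ATOH1-negative cells, in which 4 were at 10 CPM, with 1 count in all ATOH1-positive cells. The log2 ratio was -3.89, or -3.003 without plate 5.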

How the data were processed

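Single cells of chicken utricle sensory epithelia were profiled one by one with a PCR-amplified full-length cDNA protocol, per the labels. For each of the 300 cells the authors deposited 1 table of expected counts per gene, estimates that can be fractional. The submitters' processing notes name STAR, RSEM and FastQC. Versions, genome build and annotation: not given in the sources used here. For that reason no coordinates or sequences are printed. A deposited table of the whole series held the same values and was not used.

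The 12 symbols on 2 rows were summed and counts were divided by the cell total to give CPM, in Python 3.11.15 with numpy 2.4.6, pandas 2.3.3 and scipy 1.17.1. CPM carries no correction for gene length, so levels are compared between cells and not between genes. Filters and gates were as stated with the results and left 276 cells, of which 152 were hair cells (47 ATOH1-positive, 105 ATOH1-negative) and 68 supporting cells. CPM were averaged over the cells of a plate and then over plates, and the log2 ratio was taken after 1 CPM was added to both means, so ratios of low genes are understated. No test was run, because cells are not tied to animals in the labels, and no count model was fitted. The protocols describe separate sort batches and no label ties one to a plate, so a batch beyond the plate cannot be told apart. Expected counts were rounded only for sums and for thinning to 50000 counts. Doublets were not called, since cells were sorted singly into wells. Whether the 34 cells that met both gates include doublets was not tested. The calculation was checked on simulated data.

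Clusters for the marker check came from Ward clustering into 8 clusters on 20 principal components of the 1000 most variable genes. The members, gene lists and markers were chosen with earlier results of these data known. Full values were set for the 10 highest and 10 lowest ratios among called members found at 10 CPM in 20% or more of the higher class's cells, and for members at that level in at least 50% of a class. In the hair cell divisions this was 5 in each direction, and in the gene lists 3. CDH1, CDH2, CDH4, CDH6, CLDN4 and NECTIN1 between the classes, and CADM1, CDH4, CLDN1 and NECTIN1 in the divisions, were described after their values were seen, as were the members that were not called. Values of 1 member are not reported here. A total of 17 planned and 3 added alternatives were run.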

Additional observations from a re-analysis of the deposited data

Results flagged for a closer look

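Each named member was screened for a plate far from the other 4, in 46 sets of 5 plate values, and 3 sets had one. Chance alone gives such a plate in about 5% of sets.

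Plate 3 held 7 supporting cells, the fewest of any plate. Its supporting cells averaged 2187 CPM of CLDN1, while the other plates lay between 1336 and 1544 CPM. The CLDN9 log2 ratio of hair over supporting cells was -9.07 on plate 3 and between -6.58 and -5.88 on the others, and the hair cell mean of CLDN9 on that plate was 0.083 CPM. The CTNNBL1 log2 ratio was 2.99 on plate 6 and between -0.23 and 0.56 on the others, where the mean of the 10 supporting cells of plate 6 was 33.7 CPM. Whether the number of cells played a part was not tested.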

How the results depend on the processing

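The 6 members higher and the 15 lower in hair cells were kept in each of the 5 runs that left out 1 plate. Their signs agree on every plate, so only the size threshold could have removed them. These runs called 6 to 9 higher and 15 to 17 lower, with median log2 ratios of -1.28 to -0.57. Of all measured genes they called 2179 to 2498 higher, against 1958 on all plates, and 874 to 1073 lower, against 783. Averaging log2 values over cells gave 11 members higher and 12 lower, with 6 and 12 of those called by CPM among them, a median of -0.020 and 3 members called by ATOH1. Between the classes it called 2882 of all measured genes higher and 568 lower. Counting every gene with a count in any cell gave a median of -0.19. An ATOH1 cut of 50 CPM gave 8 called members in place of 5, and leaving out 1 plate gave 6 to 9 by ATOH1 and 5 to 10 by OCM. For these counts by ATOH1 and OCM the calls of all measured genes are not given here. They are therefore no result about the members. FAT4 was at -0.10 with no cell filter. The causes were not tested.

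Median-of-ratios scaling moved the median of all genes from 0.13 to 0.41 and averaging log2 values moved it to 0.43, while the members stood at -0.92 and -0.020. The stricter filter of 2000 genes and 100000 counts left 26 supporting cells on 4 plates and called 8 members higher and 10 lower. Of all measured genes it called 2338 higher and 708 lower. Of 414 values of the 23 named members under alternatives, 382 moved by less than the spread between plates, 31 moved by more and 1 reversed. The SD of the plate log2 ratios of these members ran from 0.23 for NECTIN1 to 3.34 for PCDH9. For some members a large move therefore stays under the spread. Alternatives added after seeing the data gave 7 higher and 15 lower with supporting cells set by GJB6 alone, 7 and 14 without the cells with stromal or MBP reads, and 8 and 15 for cells that gate and clusters classed alike. In the same order, all measured genes had 1946 and 979, 2070 and 629, and 2087 and 782 called higher and lower. No paired analysis was possible because no test was made and the replicate numbers only name cells. Plates entered through the call rule, which takes the sign of the ratio within each plate. The planned search of promoters for motifs was not run, since no promoter sequences were used here. A member with no count in 68 supporting cells can have a count in up to 4.41% of such cells, a limit on cells with a count and not on cells that express the gene.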

Other observations

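The 34 cells that met both gates were in no comparison above. Of these, 24 had at least 10000 CPM of GJB6, and CLDN1 was at 10 CPM or more in all 24 of them, CTNNB1 in 22, CLDN9 in 21, NECTIN3 in 13, CADM2 in 8 and PCDH20 in 4, while CDH6 and NECTIN1 were in none. In the other 10 cells CADM2 was found in 8, CLDN1 in 6, PCDH20 in 6, CDH6 in 4, CLDN9 in 4 and NECTIN1 in 1. The clusters placed 24 of the 34 cells with supporting cells and 10 with hair cells. The 34 cells had a median of 13 members at 10 CPM or more, and a median of 2073.5 of all measured genes at that level.

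The 22 cells that met neither gate had PCDH20 in 16, PCDH9 in 14, CADM2 in 13, PCDHGC3 in 13, CLDN1 in 3 and CLDN9 in 1, and the clusters placed 18 of them with hair cells. CDH6 was found in none of the 22.

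Across the hair cells the Spearman correlation with OCM was -0.46 for PCDH19, -0.31 for PCDH20 and 0.37 for CDH4, given as a description over cells that share plates and the same total as denominator. Across the 68 supporting cells the correlation with GJB6 was 0.32 for CLDN9, 0.30 for CLDN8 and 0.24 for CLDN1. It was 0.21 for CTNNA1, -0.20 for CDH11 and -0.24 for CADM2. GJB6 is also the gene that gated these cells.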
